A study of Mus musculus with 18 samples.

Results

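CCR7+ XCR1+ dendritic cells of the thymus were compared between germ-free and specific-pathogen-free mice. Of the 18 arrays of the series, 6 hold these cells from these mice: 3 germ-free (GF) and 3 specific-pathogen-free control (CTRL) arrays. The members are thus arrays, chosen by their labels and not by any measured value. All mice were of the B6 strain and untreated. The GF mice were wild type in germ-free housing, the Ifnar1-KO mice lacked the type I interferon receptor subunit Ifnar1 under specific-pathogen-free conditions, and the CTRL mice were wild type in specific-pathogen-free housing, with 3 arrays for each background at each stage. Cells were sorted as CD11b-, CD11c+, MHCII+, CD172a-, XCR1+ and CD8a+, and then as CD117- CCR7+ (called homeostatically matured in the labels) or CD117+ CCR7- (called immature). The labels give no age, sex, or number of animals per array, so the p-values measure the spread between arrays, which may be technical. The CTRL arrays served both the GF and the Ifnar1-KO comparisons.

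XCR1+ dendritic cells are the lineage that takes up dying cells and presents their antigens on MHC class I, and in the thymus they display self antigens to developing T cells. As they mature they gain the chemokine receptor CCR7, costimulatory molecules and chemokines, and leave the cell cycle. Microbes and their products drive dendritic cell maturation through Toll-like and NOD-like receptors, NF-kB and type I interferon, and steady-state thymic maturation poses the question how much of this program needs the microflora. Germ-free animals have no microflora, although microbial molecules in sterilised food can still reach them.

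Values are log2 intensities, so a difference of 1 is a doubling. A gene was called when its adjusted p (limma over all 18 arrays, Benjamini-Hochberg over all genes) was under 0.05, and groups are said not to overlap when all 3 GF arrays lay above, or all below, all 3 CTRL arrays. Genes on X and Y entered the fit but were left out of all counts, which leaves 19186 genes. In sorted bulk samples, fewer cells of a type and less RNA per cell cannot be told apart.

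Ccr7, MHC class II and CD11b transcripts followed the sort in both housings, while Xcr1 and Itgax were lower and Sirpa mostly higher than in CCR7- cells. Ccr7, the receptor that guides mature dendritic cells to chemokine sources, was at 11.96, 11.93 and 12.09 on the GF arrays and at 11.88, 12.04 and 12.03 on the CTRL arrays, against 7.25 to 9.09 on the 6 CCR7- arrays of these backgrounds. The MHC class II chain H2-Ab1 was at 11.96 to 12.19 in GF and 11.84 to 12.01 in CTRL cells. Itgam, which encodes CD11b, was at 3.85 to 3.96 in GF and 3.72 to 3.92 in CTRL cells, near the lowest levels on the array. Xcr1 itself was at 6.44, 7.97 and 6.60 in GF cells and 6.42, 6.48 and 6.30 in CTRL cells, far below the 11.28 to 11.56 of the CCR7- arrays. Itgax, which encodes CD11c, was at 6.94 to 8.09 in GF and 6.44 to 7.13 in CTRL cells, against 9.69 to 10.19 on the CCR7- arrays. Sirpa, which encodes the CD172a that the sort excluded, was at 5.18 to 5.87 in GF and 5.36 to 6.37 in CTRL cells, against 4.69 to 5.42 on the CCR7- arrays. None of the 9 sort genes measured had groups that did not overlap, set against 5.8% of all genes higher and 5.6% lower in this sense, and their largest difference was that of Xcr1 (0.60 ± 0.60, SE). The other sort genes differed by 0.45 ± 0.34 (Itgax), 0.15 ± 0.34 (Kit, CD117), 0.06 ± 0.08 (Itgam), 0.04 ± 0.07 (H2-Aa), -0.14 ± 0.18 (Cd8a) and -0.25 ± 0.28 (Sirpa).

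Some arrays stood apart before any comparison was made. GF replicates 2 and 3 and Ifnar1-KO replicate 2, at both stages, lay between -21.5 and -6.25 on the second principal component of all 18 arrays, while the other 12 arrays lay between 3.11 and 10.4. Correlations among the GF CCR7+ arrays were 0.979 to 0.985, among the CTRL CCR7+ arrays 0.990 to 0.991, and between the groups 0.978 to 0.990. A trailing r, which the labels do not explain, closes the codes of all 6 GF arrays and of 2 of 6 CTRL arrays. Sex-linked transcripts also differed: the Y-linked gene Eif2s3y was at 8.07 to 8.76 on the GF CCR7+ arrays and at 3.34 to 3.49 on the CTRL CCR7+ arrays, where the median over the 9 Y-linked genes measured was 3.46. Sex and housing therefore cannot be told apart in any GF minus CTRL difference. In the letters of their codes, the CTRL replicate 2 arrays carry the reverse of the pattern of the other arrays, and their stage was taken from the label and not from the code.

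Few genes were called between mature XCR1+ cells from germ-free mice and those from controls. Only 3 of 19186 genes were called (0.0156%), all higher in GF cells: Birc5, Atxn10 and Naf1. No gene was called lower. Before adjustment, 1119 genes (5.83%) had a p under 0.05, split into 561 higher and 558 lower. The median change over all genes was 0.0048, and the 95% confidence interval of the change lay within 1 of zero either way for 17898 genes (93.3%). That share was lower for the genes going up (79.7%) and down (79.9%) in Ifnar1-KO maturation, which are described below.

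Birc5 encodes survivin, a member of the inhibitor of apoptosis family that works in the chromosomal passenger complex during mitosis. Its level was 6.57, 6.80 and 6.95 on the GF arrays and 5.79, 5.38 and 5.27 on the CTRL arrays, so that the groups were clearly separated. The change was 1.30 ± 0.18 (SE), or 2.46-fold, with a 95% interval of 0.91 to 1.68 and an adjusted p of 0.0163 in limma. In CCR7- cells, where Birc5 was much more abundant, the levels were 9.33, 9.16 and 8.63 in GF and 8.99, 9.22 and 9.01 in CTRL cells. The GF arrays of CCR7+ cells thus still lay well below every CCR7- array of GF and CTRL mice, and Birc5 fell by 3.03 between the CCR7- and CCR7+ stages of the Ifnar1-KO mice.

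Atxn10 encodes ataxin-10, a cytoplasmic protein whose human gene carries the repeat expansion of an inherited ataxia. It had levels of 8.98, 9.33 and 9.29 in GF cells, against 8.50, 8.63 and 8.59 in CTRL cells. Its change of 0.63 ± 0.09 (1.54-fold, 95% interval 0.44 to 0.81, limma adjusted p 0.0163) was the smallest of the called genes, on a gene with little spread between arrays. CCR7- cells had 9.17, 9.28 and 9.18 in GF and 9.30, 9.11 and 9.11 in CTRL mice. The GF levels in CCR7+ cells therefore reached into or near the range of the CCR7- arrays, while the CTRL levels lay below it.

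Naf1 encodes nuclear assembly factor 1, which assembles the box H/ACA ribonucleoproteins that modify ribosomal RNA and that telomerase RNA needs. The probeset is that of the chromosome 8 gene and not of Tnip1, which has the same older name. Levels were 5.61, 5.35 and 6.19 in GF cells and 4.31, 4.33 and 4.38 in CTRL cells. The CTRL arrays lay close together (SD 0.035, n = 3) and the GF arrays were spread (SD 0.43, n = 3), and the change was 1.38 ± 0.20 (2.59-fold, 95% interval 0.95 to 1.80, limma adjusted p 0.0197). Naf1 was the one called gene whose groups did not overlap at the CCR7- stage as well, with 6.37, 6.29 and 6.68 in GF and 5.97, 5.60 and 5.61 in CTRL cells. That difference of 0.72 ± 0.20 was not called (limma adjusted p 0.766, unadjusted 0.00265).

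**Figure D1:**
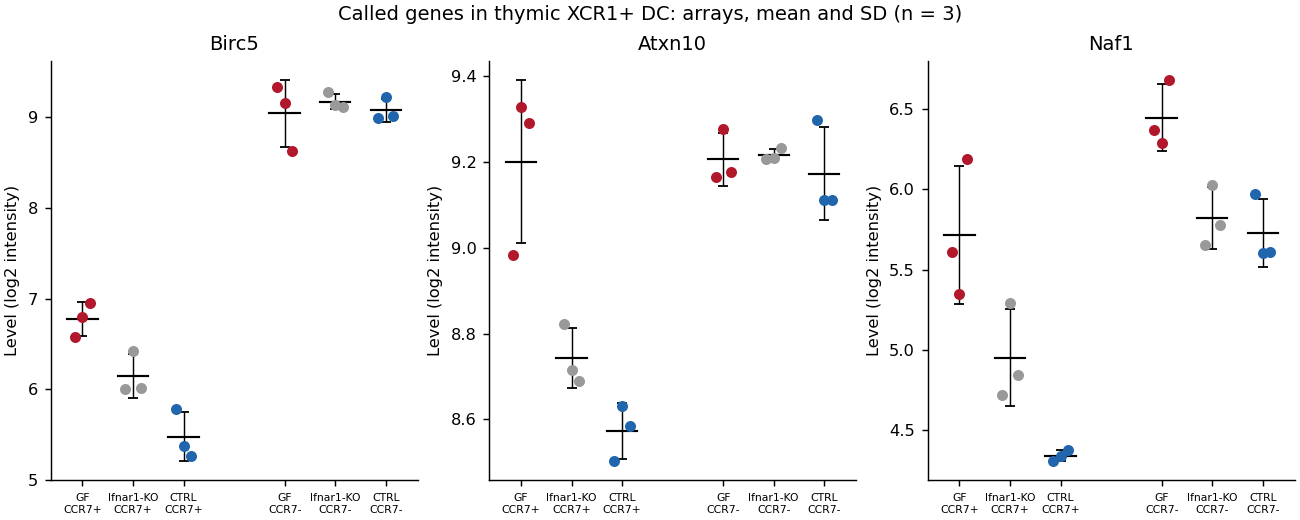
Level (log2 intensity) of Birc5, Atxn10 and Naf1 on each array, by background and stage; points are arrays, horizontal lines means and bars SD (n = 3), and each panel has its own vertical range that does not start at 0. In CCR7+ cells the 3 GF arrays lie above the 3 CTRL arrays for each gene, with Ifnar1-KO arrays between the GF and CTRL means; in CCR7- cells GF and CTRL arrays overlap for Birc5 and Atxn10 and are separate for Naf1.

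The Ifnar1-KO mice give a second background against the same CTRL arrays, so its values are not independent of those of the GF mice. Birc5 was at 6.0, 6.42 and 6.01 on the Ifnar1-KO CCR7+ arrays, 0.67 ± 0.18 above CTRL. Atxn10 was at 8.82, 8.72 and 8.69, which is 0.17 ± 0.09 above CTRL. Naf1 was at 4.72, 5.29 and 4.84, or 0.61 ± 0.20 above CTRL. For each of the 3 genes every Ifnar1-KO array lay above every CTRL array and below the lowest GF array. GF and Ifnar1-KO arrays also share the presence of Y-linked transcripts, whose part in these differences was not tested.

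The 3 calls depended on the fit. With the trailing r of the codes as a covariate no gene was called, and likewise in a fit of the 6 CCR7+ arrays alone. A fit of only the 12 CTRL and GF arrays called 2 genes, neither of them Birc5, Atxn10 or Naf1. Leaving out GF replicate 3 or CTRL replicate 3 ended all calls, leaving out CTRL replicate 2 ended the 3 calls in favour of 2 other genes, and leaving out GF replicate 1 raised the count to 9 with all 3 among them. Naf1 alone stayed called without GF replicate 2, and Birc5 alone without CTRL replicate 1. Over 28 alternatives the change was 0.99 to 1.45 for Birc5, 0.41 to 0.74 for Atxn10 and 1.14 to 1.56 for Naf1. Since the groups of all 3 genes did not overlap, leaving out arrays could not turn their direction, so its constancy is no separate support. Their adjusted p-values ranged from 0.0044 to 1.0 for Birc5, from 0.00146 to 0.631 for Atxn10 and from 0.0106 to 0.848 for Naf1.

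Promoter windows are shown for the called genes, since they are the genes on which the contrast turns. RefSeq (GRCm38.p6) places Birc5 on the forward strand at chr11:117849237-117855743, Atxn10 on the forward strand at chr15:85336255-85463837 and Naf1 at chr8:66859943-66890564. The promoter table held windows from 250 bases before to 50 after the start for 2 of the 3, Birc5 at chr11:117848987-117849286 and Atxn10 at chr15:85336005-85336304. Both strands were searched for CCAAT (the box bound by NF-Y), TTTGAA (the cell cycle homology element), CACGTG (the E-box of MYC and USF factors) and CGGAAGT (an ETS core); the letters were chosen after the results were known. Capitals mark matches.
Birc5: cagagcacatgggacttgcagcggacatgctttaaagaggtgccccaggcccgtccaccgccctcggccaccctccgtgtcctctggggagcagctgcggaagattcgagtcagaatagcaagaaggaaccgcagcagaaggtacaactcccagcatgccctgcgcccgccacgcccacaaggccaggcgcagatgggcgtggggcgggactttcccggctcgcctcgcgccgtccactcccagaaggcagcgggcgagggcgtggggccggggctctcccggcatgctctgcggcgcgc
Atxn10: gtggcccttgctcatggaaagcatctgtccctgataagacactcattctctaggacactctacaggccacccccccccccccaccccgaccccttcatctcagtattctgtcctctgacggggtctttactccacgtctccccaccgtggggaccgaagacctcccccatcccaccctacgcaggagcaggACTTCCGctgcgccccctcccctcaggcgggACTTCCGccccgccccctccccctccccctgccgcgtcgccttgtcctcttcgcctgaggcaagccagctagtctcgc
Both windows were rich in G and C, at 68.7% for Birc5 and 65.3% for Atxn10. The Atxn10 window held CGGAAGT 2 times, read on the reverse strand, and the Birc5 window held none of the 4 strings. Of 32851 promoter windows in the table, 37.4% held CCAAT, 17.9% TTTGAA, 7.15% CACGTG and 6.42% CGGAAGT.

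The groups did not overlap for 1113 genes higher in GF cells (5.8%), the 3 called genes among them, and 1075 genes lower (5.6%), so neither direction prevailed. Among genes that were not called, the 15 named genes with the largest higher values of this kind ran from 0.96 to 1.84 and the 15 with the largest lower values from -1.68 to -0.94, and none passed the test (smallest limma adjusted p among them 0.12). Under other fits 3 of them were called: Heatr9 in the fit of only the CTRL and GF arrays (limma adjusted p 0.00899), and Heatr9, Tifa and Vkorc1 with both Ifnar1-KO replicate 2 arrays left out (limma adjusted p 0.00225, 0.0474 and 0.0416). They are given as values only.

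Among the higher values was Tifa, an adaptor that couples the sensing of a bacterial sugar to TRAF6 and NF-kB, with levels of 6.12, 6.14 and 6.59 in GF cells and 4.63, 5.32 and 4.83 in CTRL cells (difference 1.36 ± 0.24). On the Ifnar1-KO arrays Tifa was at 4.73 to 5.44, within or near the CTRL range, and in CCR7- cells the housings overlapped. Plac8, a small cysteine-rich protein of immune cells, had the largest difference, 1.84 ± 0.41, and rested in part on GF replicate 3, since the levels were 6.62, 6.67 and 8.58 in GF and 5.84, 5.28 and 5.22 in CTRL cells. Vkorc1, the enzyme that recycles vitamin K, was at 6.92, 6.72 and 6.96 in GF cells, against 5.92, 5.61 and 5.37 in CTRL cells, a difference of 1.24 ± 0.26. Both Plac8 and Vkorc1 also had groups that did not overlap at the CCR7- stage, with differences of 0.81 and 0.79.

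Eef1e1 and Aimp2 are scaffold proteins of the complex of aminoacyl-tRNA synthetases, and their differences were 1.08 ± 0.23 and 0.96 ± 0.20. Aimp2 had levels of 7.11, 6.31 and 6.85 in GF cells and 5.70, 5.99 and 5.69 in CTRL cells. Uck2, a uridine-cytidine kinase of the pyrimidine salvage pathway, was at 7.93, 7.39 and 7.47 in GF cells and at 6.29, 6.40 and 6.46 in CTRL cells (1.21 ± 0.28), and its values ran the other way at the CCR7- stage (-0.43, groups not overlapping). Nme1, a nucleoside diphosphate kinase, differed by 0.97 ± 0.22, and Rfc4, a subunit of the clamp loader of DNA replication, by 0.97 ± 0.26. Mgat2, a Golgi enzyme of N-glycan synthesis, differed by 1.22 ± 0.22. The remaining ones were Utf1, Ankrd49, Cyp20a1, Slamf9, Smim8 and Lipo3, at 0.97 to 1.04. For 13 of the 15 genes GF replicate 1 lay nearer to the other GF arrays than to the CTRL mean. Over the 15 higher genes the median distance from the CTRL mean was 1.07 on GF replicate 1 and 1.18 for the mean of the other GF arrays. The median was 0.72 on Ifnar1-KO replicate 2, against 0.18 for the mean of the other Ifnar1-KO arrays. Single genes ran from -0.32 (Cyp20a1) to 1.75 (Utf1) on Ifnar1-KO replicate 2.

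The lower values were of 2 kinds by their level on GF replicate 1. Ccl3, a chemokine that attracts monocytes and T cells, was at 4.81, 5.06 and 3.79 in GF cells and at 5.63, 6.88 and 6.18 in CTRL cells, a difference of -1.68 ± 0.57 carried by all GF arrays. Kcnrg (-1.18 ± 0.26), Heatr9 (-1.16 ± 0.26), Gnrh1 (-1.40 ± 0.44), Stx16, a SNARE protein of the trans-Golgi (-0.96 ± 0.36), and Pinx1, a nucleolar inhibitor of telomerase (-0.94 ± 0.34), were likewise low on GF replicate 1. Nmrk1, a nicotinamide riboside kinase (-1.06 ± 0.27), and Tmem223 (-1.40 ± 0.40) were also nearer to the other GF arrays on that replicate. On Ifnar1-KO replicate 2, minus the CTRL mean, Tmem223 was at -1.92, Heatr9 at -1.40, Gnrh1 at -1.32 and Kcnrg at -1.06. The means of the other Ifnar1-KO arrays were -0.14, -0.11, -0.33 and -0.81 for these genes. Ccl3 was at -0.79 on Ifnar1-KO replicate 2, Stx16 at -0.76, Pinx1 at -0.27 and Nmrk1 at -0.15, against -0.56, -0.11, 0.10 and -0.41.

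The other kind had GF replicate 1 nearer to the CTRL arrays and GF replicates 2 and 3 further below. Prrc2c was at 9.52, 8.44 and 8.08 in GF cells, against 9.78, 9.86 and 9.88 in CTRL cells, and at 9.78, 7.98 and 9.82 on the Ifnar1-KO arrays. Nipbl, which loads cohesin onto chromosomes, was at 8.70, 7.42 and 7.37 in GF cells and 8.85, 8.98 and 8.76 in CTRL cells, with 6.99 on Ifnar1-KO replicate 2. Ankrd12 was at 8.34, 6.58 and 7.13 in GF cells and at 8.43, 8.55 and 8.39 in CTRL cells, with 6.90 on Ifnar1-KO replicate 2. Sltm, Wdfy3, Acin1 and Rbbp6 completed the 7 genes for which GF replicate 1 was nearer to CTRL. Over the 15 lower genes the median distance from the CTRL mean was -0.73 on GF replicate 1, -1.41 for the mean of GF replicates 2 and 3, -1.32 on Ifnar1-KO replicate 2 and -0.11 for the mean of the other Ifnar1-KO arrays. These are the arrays that stood apart on the second principal component. What sets them apart was not tested.

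**Figure D2:**
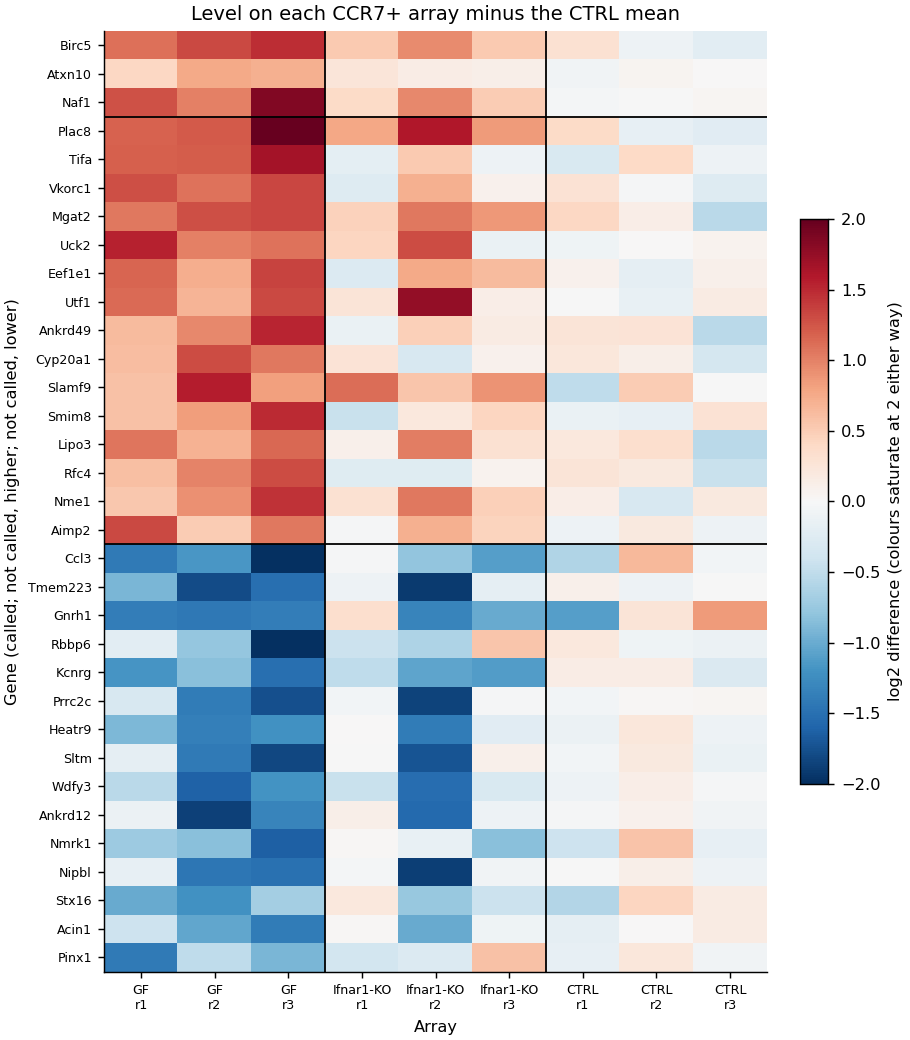
Level of the 3 called genes (top), the 15 named genes with the largest higher values (middle) and the 15 with the largest lower values (bottom) on each CCR7+ array, minus the CTRL mean of the gene (log2, colour), with GF arrays on the left, Ifnar1-KO arrays in the middle and CTRL arrays on the right. Genes of the middle block lie above the CTRL mean on all 3 GF arrays, as the rule that picked them requires. Of the 15 lower genes 7, among them Prrc2c, Nipbl and Ankrd12, are low on GF replicates 2 and 3 and mostly on Ifnar1-KO replicate 2, with GF replicate 1 near or nearer to CTRL. Tmem223, Heatr9, Gnrh1 and Kcnrg, which are low on all 3 GF arrays, are low on Ifnar1-KO replicate 2 too.

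In the pathways that Birc5 and Naf1 belong to, no further gene was called. Of 43 mitosis and cell cycle genes, 8 had higher (18.6%) and 2 lower (4.65%) GF arrays without overlap, set against 5.8% and 5.6% of all genes, and Birc5 was the only one called. The median change was 0.14, against 0.0048 over all genes, and by array it was 0.15, 0.17 and 0.00 on GF replicates 1, 2 and 3. Without CTRL replicate 3 the median was 0.04. On Ifnar1-KO CCR7+ replicates 1, 2 and 3, set against the same CTRL mean, the median of the list was 0.12, 0.31 and 0.37. Ccna2, the cyclin of S phase and mitosis, was at 5.94, 6.20 and 6.45 in GF and 5.83, 5.36 and 5.40 in CTRL cells (0.67 ± 0.42). Its levels on the Ifnar1-KO CCR7+ arrays were 5.79, 8.34 and 6.68. Top2a, which untangles DNA before division, was at 7.26, 7.02 and 7.21 in GF and 6.98, 6.77 and 6.05 in CTRL cells (0.56 ± 0.26). Mki67, the proliferation antigen, ran the other way with 6.91, 5.65 and 5.65 in GF and 6.81, 7.16 and 6.94 in CTRL cells (-0.90 ± 0.71), low again on GF replicates 2 and 3. The cell cycle genes as a list therefore did not move as one.

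Of 38 DNA replication and G1/S genes, 6 were higher without overlap (15.8%, against 5.8% of all genes), none lower and none called, with a median of 0.12. Rrm1, the large subunit of ribonucleotide reductase, was at 6.28, 6.38 and 7.25 in GF cells and at 6.05, 5.60 and 5.50 in CTRL cells (0.92 ± 0.25), and Prim2, a primase subunit, differed by 0.55 ± 0.20. Tk1, thymidine kinase, was at 9.33, 8.14 and 6.96 in GF cells and at 8.17, 8.88 and 9.24 in CTRL cells (-0.62 ± 0.47). Its value ran from -1.21 to -0.03 with single arrays left out and was 0.56 without GF replicates 2 and 3, so it had no settled direction. The median over this list was 0.06, 0.24 and 0.10 on GF replicates 1, 2 and 3, each set against the CTRL mean, and it was 0.02 without GF replicate 2.

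Of 35 genes of telomerase, small nucleolar ribonucleoproteins and ribosome biogenesis, 3 were higher (8.57%) and 1 lower (2.86%) without overlap, set against 5.8% and 5.6% of all genes, and only Naf1 was called. Nop58, a core protein of box C/D particles, was at 5.67, 5.37 and 6.28 in GF and 5.26, 5.12 and 5.04 in CTRL cells (0.63 ± 0.28). The ribosome assembly factors Rrs1 (1.15 ± 0.41) and Utp15 (0.70 ± 0.31) had overlapping groups. Gar1, Nhp2 and Nop10, core proteins of the H/ACA particle that Naf1 helps to build, were looked up after the result was seen and differed by 0.27 ± 0.17, 0.26 ± 0.23 and 0.11 ± 0.29, with groups that overlapped. Within the inhibitor of apoptosis family Birc5 was the exception, the only positive value of 7 (14.3%, against 51.5% of all genes). The other 6 measured members had negative values, such as -0.22 ± 0.25 for Birc2, -0.22 ± 0.28 for Birc6 and -0.22 ± 0.33 for Naip6. Of 10 genes of cilium and nephronophthisis proteins, listed because ataxin-10 has been found together with nephronophthisis proteins, only Atxn10 was called. Iqcb1 differed by 0.34 ± 0.25, Invs by -0.31 ± 0.15 and Cep164 by -0.28 ± 0.09.

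Receptors for microbial products showed no called gene. Of 20 Toll-like receptor and adaptor genes 1 was higher without overlap (5%, against 5.8% of all genes): Tlr12, a profilin receptor of mouse dendritic cells, at 6.18, 6.13 and 5.67 in GF and 5.59, 5.65 and 5.48 in CTRL cells (0.42 ± 0.22). Ly86, the MD-1 partner of the receptor-like protein RP105, differed by 0.67 ± 0.21 with overlapping groups. The group mean of Tlr3 ran the other way, with 3.85, 4.16 and 4.06 in GF and 4.90, 4.28 and 4.07 in CTRL cells. The median of this list was -0.04, and 9 of the 20 genes had positive values (45%, against 51.5% of all genes). Of 20 NOD-like receptor and inflammasome genes 5 were lower without overlap (25%, against 5.6% of all genes) and none higher (against 5.8%), with a median of -0.08 that was 0.01 without CTRL replicate 2. Nlrc5, the transactivator of MHC class I genes, was at 10.56, 9.73 and 9.03 in GF cells and at 10.58, 10.72 and 10.79 in CTRL cells (-0.92 ± 0.39). Aim2, a sensor of cytosolic DNA, was at 8.06, 8.06 and 7.10 in GF cells, against 8.58, 8.44 and 8.08 in CTRL cells (-0.63 ± 0.34). Gsdmd, the pore protein that inflammasomes activate, was at 8.63, 8.69 and 8.31 in GF and 8.98, 9.17 and 9.30 in CTRL cells (-0.61 ± 0.26). Nod1, a receptor for bacterial cell wall fragments, was at 4.12 to 4.22 in GF and 4.37 to 4.56 in CTRL cells. On Ifnar1-KO replicate 2, Nlrc5 was at 9.74, Aim2 at 7.71 and Gsdmd at 8.48, each below all CTRL arrays.

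Of 14 lectins for microbial sugars 1 was higher and 1 lower without overlap (7.14% each, against 5.8% and 5.6% of all genes). The lower one was Ly75, the uptake receptor DEC-205, at -0.37 ± 0.25. Clec7a, the beta-glucan receptor Dectin-1, differed by 0.33 ± 0.33. Among 27 receptors and response genes for microbial metabolites, 2 were higher (7.41%) and 3 lower (11.1%) without overlap, set against 5.8% and 5.6% of all genes. Ffar4, a receptor for long-chain fatty acids, was at 6.34, 7.09 and 6.33 in GF and 6.16, 5.43 and 5.52 in CTRL cells (0.88 ± 0.21), and its groups did not overlap at the CCR7- stage either (0.24). Ahr, the aryl hydrocarbon receptor that binds indoles of bacterial and dietary origin, was at 6.80, 6.96 and 7.10 in GF and 6.37, 6.72 and 6.29 in CTRL cells (0.49 ± 0.19). Vdr, the vitamin D receptor, was at 6.30, 5.70 and 5.07 in GF cells and at 6.59, 6.48 and 6.34 in CTRL cells (-0.78 ± 0.33). Rdh10, an enzyme of retinoic acid synthesis, differed by 0.52 ± 0.38 through GF replicate 2 alone.

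Genes downstream of these receptors were also without a call. Of 53 type I interferon stimulated genes 3 were higher (5.66%) and 6 lower (11.3%) without overlap, set against 5.8% and 5.6% of all genes. The median was 0.02, and the medians on GF replicates 1, 2 and 3 were -0.03, 0.16 and -0.18 against the CTRL mean. Ifit3 was at 5.63, 6.23 and 7.73 in GF and 5.30, 5.0 and 5.78 in CTRL cells (1.17 ± 0.38), Slfn1 differed by 0.59 ± 0.28 and Mx1 by -0.76 ± 0.66, so the members pointed different ways. Of 15 genes stimulated by interferon gamma none was higher and 1 lower (6.67%) without overlap, set against 5.8% and 5.6% of all genes. Gbp8 differed by -0.90 ± 0.33 with overlapping groups. The chemokine Cxcl10 was at 7.0, 6.18 and 5.71 in GF and 6.93, 7.64 and 6.43 in CTRL cells (-0.70 ± 0.36), and Cxcl9 at 9.30, 9.98 and 7.97 in GF and 8.59, 8.45 and 8.14 in CTRL cells (0.69 ± 0.36). The groups of both overlapped, and with single arrays left out the value ran from -1.06 to -0.38 for Cxcl10 and from 0.24 to 1.25 for Cxcl9. Among 23 NF-kB subunits, regulators and target genes, 3 had positive values (13.0%, against 51.5% of all genes), 3 were lower without overlap (13.0%, against 5.6% of all genes) and none higher (against 5.8%), and the median was -0.10. Map3k14, the kinase NIK of the alternative NF-kB pathway, was at 7.66, 7.33 and 6.81 in GF and 7.77, 7.94 and 7.90 in CTRL cells (-0.61 ± 0.35). The NF-kB median was 0.00, -0.13 and -0.25 on GF replicates 1, 2 and 3, and 11, 6 and 4 of the 23 genes lay above the CTRL mean on them. Leaving out single arrays moved the median between -0.19 and -0.03, nearest to zero without GF replicate 3. On Ifnar1-KO CCR7+ replicates 1, 2 and 3 the NF-kB median was 0.23, -0.23 and -0.07. At the CCR7- stage the GF minus CTRL median was -0.29. Between the stages of the Ifnar1-KO mice the list rose by a median of 1.63. Of all genes going up in that maturation, described below, 37.7% had positive values and 10.4% were lower without overlap.

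The genes that characterise mature dendritic cells were at close levels in both housings. Of 34 such genes, none was called, 1 was higher (2.94%) and 3 lower (8.82%) without overlap, set against 5.8% and 5.6% of all genes, and the mean level of the list was 10.4, 10.3 and 10.2 on the GF arrays and 10.3, 10.5 and 10.4 on the CTRL arrays, against 6.55 to 7.59 on the CCR7- arrays of the same backgrounds. Ccl19, a ligand of CCR7, was at 9.02, 8.62 and 9.06 in GF cells and at 10.12, 9.07 and 9.90 in CTRL cells (-0.79 ± 0.23). Lad1 differed by -0.58 ± 0.35, Il15ra, which presents the cytokine IL-15, by -0.53 ± 0.20, and Pdcd1lg2, the checkpoint ligand PD-L2, by 0.40 ± 0.28, the one member with higher GF arrays throughout. Of 22 costimulatory and checkpoint genes 1 was higher without overlap (4.55%, against 5.8% of all genes) and none lower. Icosl, the ligand of ICOS, was at 9.62, 9.68 and 8.75 in GF and 9.80, 9.67 and 9.97 in CTRL cells (-0.46 ± 0.27, and -0.63 to -0.16 with single arrays left out). Slamf1 was at 8.49, 7.36 and 7.34 in GF and 8.07, 8.38 and 7.99 in CTRL cells (-0.42 ± 0.30), and its value was 0.35 without GF replicates 2 and 3. Of 30 chemokine and cytokine genes, 2 were higher and 2 lower without overlap (6.67% each, against 5.8% and 5.6% of all genes), Ccl3 among the lower.

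Antigen presentation showed the same closeness. Of 16 MHC class II pathway genes 1 was higher without overlap (6.25%, against 5.8% of all genes) and none lower (against 5.6%). H2-DMa, which loads peptides onto class II, was at 8.21, 9.50 and 9.03 in GF and 8.14, 8.34 and 8.27 in CTRL cells (0.66 ± 0.23). That difference was called without GF replicate 1 (1.01, limma adjusted p 0.0312). Of 18 MHC class I and cross-presentation genes only Nlrc5 had groups without overlap (5.56% lower, against 5.6% of all genes), and 17 had confidence intervals within 1 of zero. Tapbpl, a peptide editor of class I, differed by -0.27 ± 0.14. Of 19 tolerance and regulatory T cell genes, 2 were higher (10.5%) and 3 lower (15.8%) without overlap, set against 5.8% and 5.6% of all genes. Tgfb1, a cytokine that induces regulatory T cells, was at 7.08, 6.74 and 7.27 in GF cells and at 6.52, 6.18 and 6.54 in CTRL cells (0.62 ± 0.24). Ido1, a tryptophan-degrading enzyme of tolerance, differed by 0.39 ± 0.16 and was low in both housings. None of 20 migration and cytoskeleton genes had groups without overlap, though Cotl1, an actin-binding protein, differed by 1.12 ± 0.52. Of 14 BCL2 family genes 1 was higher (7.14%) and 2 lower (14.3%) without overlap, set against 5.8% and 5.6% of all genes. The higher one was Bcl2l11, the death inducer BIM (0.32 ± 0.22), and the lower ones were Bid (-0.32 ± 0.20) and Bcl2l2, which was named after its values were seen. Pmaip1, the death inducer NOXA, differed by 0.58 ± 0.21 and Bcl2l1, the survival protein BCL-XL, by 0.37 ± 0.30, both with overlapping groups.

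Group means of the heat shock genes were lower in GF cells throughout the list, though not on every array. All 14 measured members had negative changes, 4 of them lower without overlap (28.6%, against 5.6% of all genes), and the median was -0.26, against 0.0048 over all genes. By array, 6, 1 and 1 of the 14 lay above the CTRL mean on GF replicates 1, 2 and 3, and the array medians were -0.10, -0.23 and -0.40. None was called, and 5 had an unadjusted p under 0.05. Hsph1, an HSP110 chaperone, was at 7.65, 8.17 and 7.84 in GF and 8.44, 8.31 and 8.46 in CTRL cells (-0.52 ± 0.19). Hspa4l was at 5.99, 6.22 and 6.25 in GF and 7.14, 6.50 and 6.73 in CTRL cells (-0.64 ± 0.25). Chordc1, an HSP90 cochaperone, was at 7.88, 8.16 and 7.96 in GF cells and at 8.74, 8.39 and 8.24 in CTRL cells (-0.45 ± 0.18), and Dnaja1, an HSP40 protein, differed by -0.49 ± 0.22. The mean level of the list was 9.01, 8.94 and 8.82 on the GF CCR7+ arrays and 9.31, 9.12 and 9.19 on the CTRL CCR7+ arrays, without overlap, and the median without any one GF or CTRL array stayed between -0.32 and -0.19. At the CCR7- stage the median was also -0.26, with 5 of the 14 members lower without overlap, against 5.2% of all genes at that stage. On the Ifnar1-KO CCR7+ arrays the list mean was 9.06, 9.10 and 9.25. Among 24 immediate early genes 3 were lower without overlap (12.5%, against 5.6% of all genes) and none higher, with Nr4a1 at -0.79 ± 0.36 and Fos at 0.50 ± 0.23, and the median was -0.02.

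Metabolic lists were near zero or slightly positive. Of 24 mitochondrial respiration genes 19 had positive values (79.2%, against 51.5% of all genes) and 1 was higher without overlap (4.17%, against 5.8%). The median was 0.13, at -0.03, 0.18 and 0.12 on GF replicates 1, 2 and 3, and it was 0.06 without GF replicate 2 and 0.21 without GF replicate 1. The medians were 0.03 for 15 glycolysis genes, -0.04 for 21 genes of cholesterol synthesis and efflux, 0.03 for 20 genes of the unfolded protein response (3 higher without overlap, or 15%, against 5.8% of all genes), -0.02 for 17 circadian clock genes and -0.01 for 17 antioxidant and metallothionein genes. No member of these lists was called.

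**Figure D3:**
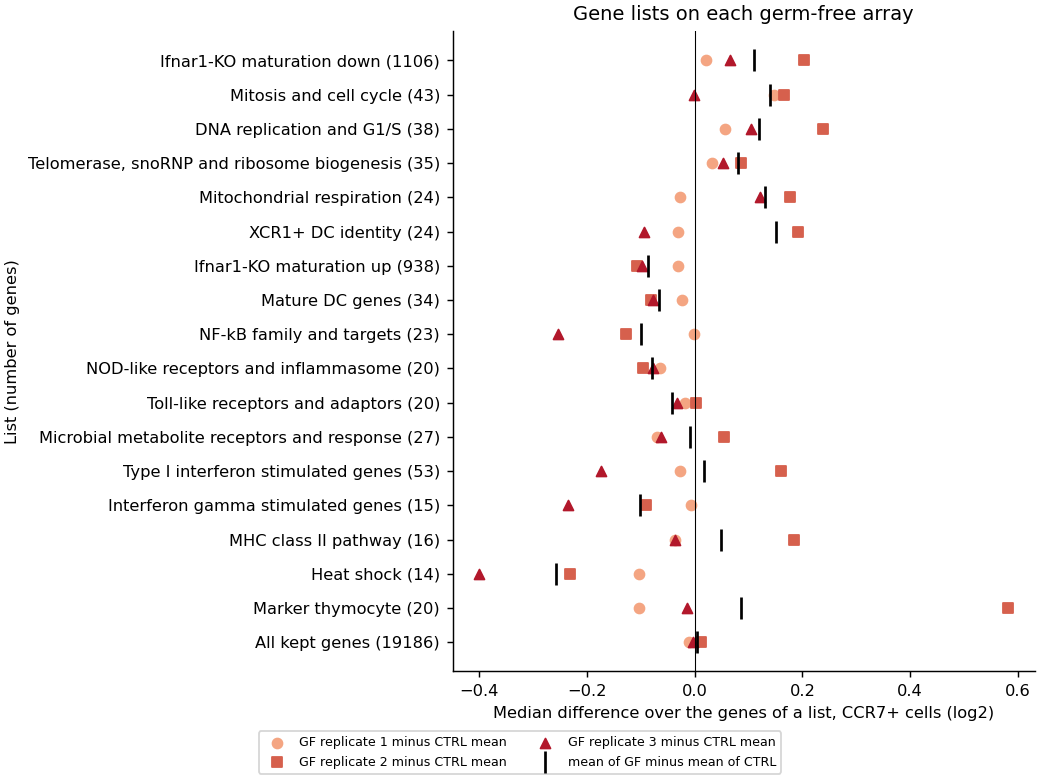
Median difference from the CTRL mean over the genes of each list (log2) on each GF CCR7+ array (circle, square and triangle for replicates 1, 2 and 3), and the median of the change of group means (bar); numbers in brackets are genes measured. The medians of the heat shock genes lie below zero on all 3 GF arrays with a median change of -0.26, those of genes down in maturation lie above zero on all 3, and those of type I interferon stimulated genes spread to both sides.

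Maturation itself gave lists that share no array with the GF minus CTRL contrast, by taking genes called between the stages of the Ifnar1-KO mice with a change of at least 1: 938 genes up (4.89%) and 1106 genes down (5.76%). Of the 938 genes up in maturation, 28 were higher (2.99%) and 98 lower (10.4%) in GF cells without overlap, set against 5.8% and 5.6% of all genes, and the median was -0.09. Of the 1106 genes down in maturation, 126 were higher (11.4%) and 41 lower (3.71%), and the median was 0.11. One of these 1106 genes, Birc5, was called, and 63 of the 81 mitosis and replication genes are among them.

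The size of this shift was small beside maturation. The median maturation change in Ifnar1-KO mice was 1.60 for the list going up and -1.52 for the list going down. The mean level of the rising genes was 8.42, 8.36 and 8.38 on the GF CCR7+ arrays and 8.44, 8.55 and 8.43 on the CTRL CCR7+ arrays, with every GF array just below every CTRL array. For the falling genes it was 5.94, 6.15 and 6.04 in GF cells and 5.96, 5.94 and 5.85 in CTRL cells, which overlap. By array, the median of the rising genes was -0.03, -0.11 and -0.10 on GF replicates 1, 2 and 3 and that of the falling genes 0.02, 0.20 and 0.07. Leaving out any one GF or CTRL array left the medians between -0.11 and -0.06 for the rising and between 0.06 and 0.16 for the falling genes. Ifnar1-KO replicate 2, set against the same CTRL mean, had -0.17 and 0.10, and the other Ifnar1-KO arrays 0.04 and -0.04 for rising and 0.00 and 0.23 for falling genes. At the CCR7- stage the medians were -0.11 for the rising and -0.07 for the falling genes, so that only the rising genes kept their sign.

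**Figure D4:**
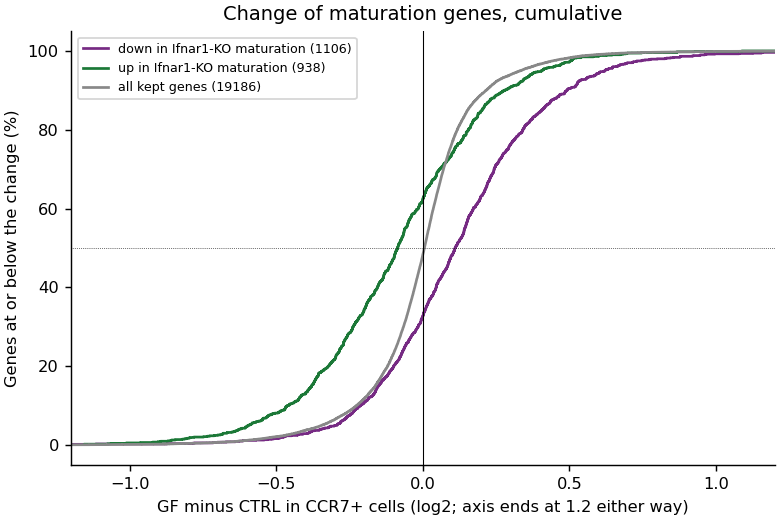
Cumulative share of genes (%) by GF minus CTRL change in CCR7+ cells (log2), for genes down in Ifnar1-KO maturation (1106, purple), genes up in Ifnar1-KO maturation (938, green) and all 19186 kept genes (grey). The green curve crosses 50% at -0.09 and the purple curve at 0.11, while the grey curve crosses at 0.0048.

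Markers of cells that a CCR7+ XCR1+ sort could also hold were examined, with counts without overlap to be read against 5.8% of all genes higher and 5.6% lower. Markers of thymocytes, the most numerous cells of the organ, had mean levels of 5.54, 6.25 and 5.84 on the GF arrays and 5.89, 5.32 and 5.94 on the CTRL arrays, and 7.78 on Ifnar1-KO replicate 2; 2 of 20 were higher in GF cells without overlap (10%). The recombinase gene Rag1 was at 6.0, 8.40 and 7.55 in GF and 7.09, 5.63 and 5.57 in CTRL cells, and Dntt, the terminal transferase of thymocytes, at 4.35, 6.50 and 5.73 in GF and 4.69, 4.27 and 4.41 in CTRL cells. Group means of Cd5 and Cd28 ran the other way. Cd5 was at 6.01, 5.91 and 5.85 in GF and 6.72, 5.99 and 7.29 in CTRL cells. Cd28 was at 5.19, 5.35 and 6.31 in GF and 6.68, 5.13 and 7.19 in CTRL cells. In the whole list 13 of 20 markers had positive values (65%, against 51.5% of all genes). Of the 20 markers 4 are in the list going up in maturation and none in the list going down. For macrophages and monocytes 5 of 16 markers were higher without overlap (31.2%), and 11 of 16 had positive values. The list means were 5.09, 4.98 and 5.12 in GF and 5.04, 4.98 and 4.97 in CTRL cells. Cd68 overlapped (0.59 ± 0.32), and group means of Spic and Lyz2 ran the other way. Spic was at 6.77, 5.26 and 7.17 in GF and 7.16, 6.53 and 6.97 in CTRL cells. Lyz2 was at 6.26, 6.07 and 6.84 in GF and 5.99, 8.06 and 6.25 in CTRL cells. NK and innate lymphoid markers had list means of 4.43, 4.53 and 4.58 in GF and 4.39, 4.36 and 4.29 in CTRL cells, with 2 of 12 higher (16.7%), and the natural killer receptor Ncr1 was at 3.60 to 3.80 in GF and 3.34 to 3.43 in CTRL cells, near the lowest levels on the array. For plasmacytoid dendritic cells 2 of 8 (25%), and for SIRPa+ dendritic cells 2 of 12 (16.7%), were higher without overlap, and none of either was lower without overlap. Positive values were found for 7 of the 8 and 8 of the 12 markers. The lowest values were -0.13 and, for Sirpa itself, -0.25. B cell markers had 1 of 13 lower, Blnk at -0.54 ± 0.12. Neutrophil, thymic epithelial, and fibroblast and endothelial markers each had 1 higher and 1 lower, of 11, 14 and 14. Among neutrophil markers, 7 of 11 with positive values, S100a8 reached 6.94 on GF replicate 3 and was at 4.29 to 4.88 on the other 5 arrays. S100a9 was lower, at 4.13, 4.37 and 4.11 in GF and 4.83, 4.38 and 4.55 in CTRL cells. Among thymic epithelial markers, 6 of 14 with positive values, Epcam differed by 0.74 ± 0.20. Krt8 was at 5.93, 5.76 and 5.78 in GF and 6.98, 5.85 and 6.20 in CTRL cells. None of 3 erythroid markers had groups without overlap. The part of these cells in the differences above was not tested. The XCR1+ identity genes had none of 24 higher and 1 lower without overlap, and a median of 0.15. That median was -0.03, 0.19 and -0.09 on GF replicates 1, 2 and 3 and -0.07 without GF replicate 2, so its sign rested on that array.

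The CCR7- stage was set beside the CCR7+ stage to see whether the differences belong to mature cells. No gene was called there (0%; smallest limma adjusted p 0.0537), against 1211 at an unadjusted p under 0.05. The groups did not overlap for 1835 genes higher (9.56%) and 998 genes lower (5.2%) in GF CCR7- cells. Of the 1113 genes higher in CCR7+ cells 162 were higher in CCR7- cells too, which is 14.6% of the CCR7+ list and 8.83% of the CCR7- list, and 13 were lower. Of the 1075 genes lower in CCR7+ cells 135 were lower in CCR7- cells, or 12.6% of the CCR7+ list and 13.5% of the CCR7- list, and 44 were higher. Prrc2c (-1.26), Nipbl (-1.09), Wdfy3 (-1.02), Sltm (-0.95) and Ankrd12 (-0.81) had lower GF arrays at the CCR7- stage without overlap.

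The difference between the stages was tested directly as an interaction. No gene was called (0%; smallest limma adjusted p 0.999), and 633 (3.30%) had an unadjusted p under 0.05. For Birc5 the GF minus CTRL change in CCR7+ cells exceeded that in CCR7- cells by 1.33 ± 0.25 (95% interval 0.79 to 1.87), for Atxn10 by 0.59 ± 0.12 (0.33 to 0.86) and for Naf1 by 0.66 ± 0.28 (0.06 to 1.26). Their unadjusted p-values were 0.000112, 0.000261 and 0.0340 in limma, and after adjustment all were 0.999, so a difference between the stages was not established for any of the 3. Arrays of one background and replicate number deviated together across the stages in CTRL mice (correlations of 0.10 to 0.18) and Ifnar1-KO mice (0.24 to 0.32), but not throughout in GF mice (0.27, 0.00 and 0.03). With background and replicate number as a block the differences had 95% intervals of 0.67 to 1.99 for Birc5, 0.31 to 0.88 for Atxn10 and 0.30 to 1.02 for Naf1, and again no gene was called (smallest limma adjusted p 0.993, with 873 genes at an unadjusted p under 0.05). The median half-width of a 95% interval was 0.27 for a change within a stage and 0.38 for a difference between stages. For the CCR7+ change it was 0.50 over the genes up in maturation and 0.52 over those down. These intervals are not adjusted for the number of genes, so they do not give the size of change that would be called. Tifa, at 1.36, was not called (limma adjusted p 0.119).

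**Figure D5:**
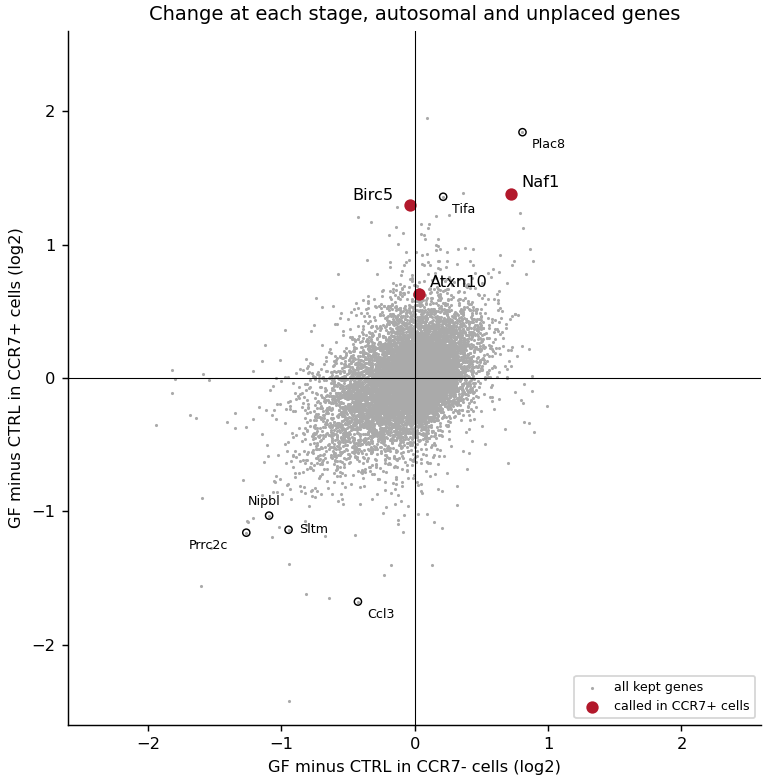
GF minus CTRL change (log2) in CCR7+ cells (vertical) against that in CCR7- cells (horizontal), one point per kept gene (grey), with the called genes in red and 6 named genes that were not called circled. Birc5 and Atxn10 lie near zero on the horizontal axis and Naf1 at 0.72; Prrc2c, Nipbl and Sltm lie low on both axes.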

How the data were processed

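Gene expression was measured on 18 Affymetrix Mouse Gene ST arrays. Per the labels' protocols, the NuGEN Ovation Pico system amplified between 0.7 and 7.3 ng of RNA per sample. The authors summarised the arrays as log2 intensities with RMA (oligo package), per the submitters' processing notes; versions are not given in these sources, nor is it stated whether the arrays were normalised in 1 batch. They were not normalised or filtered again.

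Of 35556 probesets, 21789 have 1 gene symbol, 1621 several and 12146 none. The probeset with the highest mean over 18 arrays stood for each of 19938 genes (999 had several). Of these, 19856 matched RefSeq (GRCm38.p6) by Entrez ID and 82 by symbol; 752 genes on X or Y were left out of all counts.

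Limma 3.58.1 (R 4.3.3, statmod 1.5.0) fitted 6 group means to all 18 arrays (12 residual degrees of freedom, 14.4 after eBayes), with Benjamini-Hochberg adjustment over all 19938 genes per comparison. The fit was checked on simulated data. Arrays have no read depth; their number limits the precision. Replicate numbers did not pair GF with CTRL arrays (correlations of deviations -0.12 to -0.11 in CCR7+ cells), but tied the stages within CTRL and Ifnar1-KO mice.

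Named were all called genes, the 15 uncalled genes per direction with the largest change among those whose groups did not overlap, up to 4 members of each of 40 lists with the largest change, and the sort genes; predicted genes, cDNA clones and small RNAs were only counted. The members and lists were chosen with earlier results of these data known. Alternatives were other spread estimates, normalisations, probeset rules, blocks and arrays left out. Tables used pandas and figures matplotlib.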

Additional observations from a re-analysis of the deposited data

Results flagged for a closer look

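Genes on the sex chromosomes lie outside the counts above and differed between the housings. In CCR7+ cells the GF minus CTRL change was 5.02 for Eif2s3y and 1.92 for Kdm5d, both Y-linked, and -4.67 for the X-inactivation transcript Xist, with limma adjusted p-values of 3.60e-05, 0.000645 and 0.0122. The changes were 4.58, 2.22 and -5.16 at the CCR7- stage. Kdm5d was at 6.48, 6.02 and 6.44 on the GF CCR7+ arrays and at 4.32, 4.25 and 4.62 on the CTRL CCR7+ arrays. The Ifnar1-KO CCR7+ arrays had Eif2s3y at 6.35 to 7.84, between the GF and the CTRL arrays. Sex and housing cannot be told apart here.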

How the results depend on the processing

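The count of 3 called genes fell to 0 with the trailing r of the array codes as a covariate and in a fit of the 6 CCR7+ arrays alone, was 7 with both Ifnar1-KO replicate 2 arrays left out, all 3 included, and 18 with GF replicates 2 and 3 of both stages left out, none of the 3 included. It ranged from 0 to 9 with each GF or CTRL array left out in turn. Fits with an intensity trend, a robust prior, array weights, X and Y genes removed, genes above the median level, arrays centred or quantile normalised again, and other probeset rules gave 2 to 4 genes; the fit of only CTRL and GF arrays gave 2, neither among the 3, and the fit of only arrays with a trailing r, chosen after seeing the data, gave 2, with a lone CTRL array per stage assumed to vary like the others. With the replicate number as a block 2 genes were called, Birc5 and B4galt1; the numbers do not pair GF with CTRL arrays. With background and replicate number as a random block across the stages, chosen after seeing the data (consensus correlation 0.15), the same 3 genes were called in CCR7+ cells and none in CCR7- cells or between stages. In CCR7- cells, where none was called, an intensity trend gave 1, array weights 3, only CTRL and GF arrays 1, only arrays with a trailing r 1, leaving out Ifnar1-KO replicate 2 gave 3, and leaving out single arrays 0 to 36, the highest without GF CCR7- replicate 1. For the difference between stages, where none was called, the count was 4 without GF replicates 2 and 3, 1 with only arrays with a trailing r, and 0 with single arrays left out. Of 104 uncalled genes given with a change, 49 moved by over 1.5 times or turned without some single CCR7+ array. Among them, these changes had the other sign than in the report. Without GF replicates 2 and 3: Ccr7 -0.024, Kit -0.36, H2-Aa -0.10, Tk1 0.56, Nop10 -0.62, Naip6 0.046, Invs 0.003, Clec7a -0.43, Rdh10 -0.083, Cxcl10 0.0042, Slamf1 0.35, H2-DMa -0.043, Tapbpl 0.027, Rag1 -0.10, Dntt -0.10, S100a8 -0.24, Cd68 -0.15. With the trailing r as a covariate: Nop10 -0.10, Birc6 0.093, Naip6 0.19, Mx1 0.001. With only trailing-r arrays: Nhp2 -0.024, Birc6 0.17, Naip6 0.24. With single arrays left out the range was: Ccr7 -0.043 to 0.041, Kit -0.12 to 0.41, Cd8a -0.36 to 0.0047, H2-Aa -0.0026 to 0.11, Nop10 -0.17 to 0.48, Clec7a -0.14 to 0.71, Rdh10 -0.081 to 0.83. With arrays quantile normalised again or all probesets of a gene averaged: Ccr7 -0.012, Birc2 0.0057. The causes were not tested. Leaving out arrays also changes the spread estimate, and 1 array per GF group gives the GF change no replicate check of its own.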

Other observations

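Gene span was related to the change in a way the comparison above does not use; the division was chosen after seeing the data. Genes in the upper part of the Ifnar1-KO CCR7+ level range (9591 genes at or above the median) were divided into 5 equal parts by the length of genome from start to end of the gene in RefSeq. The median GF minus CTRL change in CCR7+ cells was 0.03, 0.02, 0.00, -0.03 and -0.08 from the shortest part (median span 3.51 kb) to the longest (101 kb). The share of genes lower in GF cells without overlap was 4.38%, 5.53%, 6.67%, 8.45% and 10.5% in the same order, and the share higher was 6.36%, 5.32%, 5.63%, 4.17% and 2.87%. In the longest part the median distance from the CTRL mean was -0.04, -0.10 and -0.13 on GF replicates 1, 2 and 3, and 0.02, -0.21 and 0.03 on Ifnar1-KO replicates 1, 2 and 3. At the CCR7- stage the medians were 0.09, 0.04, -0.02, -0.08 and -0.18.

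By level, in 4 equal parts of the Ifnar1-KO CCR7+ mean, 8.57% of the genes in the lowest part were higher in GF cells without overlap and 3.29% lower, while the highest part had 5.27% higher and 6.67% lower.

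Of all 35556 probesets, those without exactly 1 gene symbol included 1 called in the same comparison, at 7.80, 7.58 and 8.15 on the GF CCR7+ arrays and 3.34, 3.47 and 3.56 on the CTRL CCR7+ arrays, a change of 4.39, and at 6.97, 6.72 and 5.33 on the Ifnar1-KO CCR7+ arrays. Eif2s3y, which is Y-linked, was likewise high, intermediate and low on these groups. The annotation used gives the probeset neither gene nor chromosome, so whether it is sex-linked, and so outside the counts above, was not settled.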
